A study of Mus musculus with 13 samples.

Results

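The HoxB cluster on mouse chromosome 11 was described through every called CTCF, RAD21 and SMC1 peak between Hoxb13 and Hoxb1 and in the 50 kb on each side. The span of the 10 HoxB genes was chr11:96194316-96368256 (mm10, GENCODE M21), and the window with its flanks was chr11:96144316-96418256. It held 145 of the 457888 merged peaks of the 11 lists, 115 of CTCF and 30 of cohesin, which fell at 22 separate sites. The sites are numbered here from the Ttll6 side, beyond Hoxb13, to the side beyond Hoxb1.

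The study profiled protein binding by ChIP-seq in limbs of E12.5 mouse embryos that were wild type or carried deletions at HoxD, a different Hox cluster on chromosome 2. In the B6CBAF1 strain, CTCF lists came from homozygotes of 4 deletion alleles, bred from heterozygous parents, and from wild type. The labels call the alleles del(1-13)d9lac, del(8-13)d11lac, del(attP-Rel5)d9lac and del(8-13)rXII. These libraries came from whole forelimbs and hindlimbs, except that del(8-13)rXII was made by ChIPmentation, a tagmentation form of ChIP-seq, from the forelimbs of 4 embryos. RAD21 was profiled in whole limbs of del(8-13)rXII, sequenced in 2 runs, and of B6CBAF1 wild type. In the CD1 strain, all wild type, the distal forelimb was profiled for CTCF, RAD21 and SMC1, and the proximal forelimb for CTCF. None of the allele names refers to HoxB, so by the labels this cluster was undeleted in every group. Each group had 1 library, so there was no replicate spread and no test between groups, and differences between limb parts and whole limbs cannot be told apart from differences between the strains. The series also names 2 H3K27ac samples of CD1 forelimb, which were not analysed here. The lists hold no expression values, so the tissue labels could not be checked against marker genes.

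Hox genes encode homeodomain transcription factors that give positional identity along the body axis, and their order on the chromosome broadly follows the order of their expression domains. In HoxB, the genes towards the Hoxb1 end are in general expressed farther towards the head, and Hoxb13 at the other end farthest towards the tail. CTCF recognises a long, directional DNA motif through its zinc fingers. RAD21 and SMC1 are subunits of cohesin, a ring that reels chromatin into loops until it meets bound CTCF, and CTCF sites within Hox clusters are known to separate neighbouring genes into different chromatin domains.

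At 12 sites a CTCF peak was called in all 7 CTCF lists, 9 of them inside the cluster, 2 on the Ttll6 flank (sites 1 and 3) and 1 beyond Hoxb1 (site 21). Their CTCF motif matches are shown because these sites carry the comparisons. The 19 bases of each match are in capitals, with 10 bases on each side in lower case. Each is written 5′ to 3′ on the strand that carries the match and was read from the RefSeq assembly GRCm38.p6. Sites 1, 7, 8, 11, 14, 15 and 21 were called in all 11 lists, sites 3, 5, 6 and 10 in no cohesin list, and site 13 in the SMC1 list alone among the cohesin lists.
Site 1, plus strand, chr11:96145769-96145807: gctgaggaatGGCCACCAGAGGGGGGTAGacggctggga
Site 3, minus strand, chr11:96157344-96157382: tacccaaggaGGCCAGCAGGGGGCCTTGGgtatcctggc
Site 5, minus strand, chr11:96198750-96198788: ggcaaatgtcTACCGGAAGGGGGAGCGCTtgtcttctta
Site 6, minus strand, chr11:96223992-96224030: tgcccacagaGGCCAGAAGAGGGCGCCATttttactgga
Site 7, minus strand, chr11:96235091-96235129: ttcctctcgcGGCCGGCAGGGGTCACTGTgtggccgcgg
Site 8, minus strand, chr11:96240407-96240445: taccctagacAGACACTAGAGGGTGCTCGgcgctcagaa
Site 10, minus strand, chr11:96261738-96261776: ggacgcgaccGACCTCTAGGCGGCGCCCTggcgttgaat
Site 11, plus strand, chr11:96278936-96278974: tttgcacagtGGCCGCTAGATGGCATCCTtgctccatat
Site 13, minus strand, chr11:96294683-96294721: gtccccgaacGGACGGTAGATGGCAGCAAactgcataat
Site 14, plus strand, chr11:96303233-96303271: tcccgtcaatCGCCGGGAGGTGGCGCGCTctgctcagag
Site 15, plus strand, chr11:96311730-96311768: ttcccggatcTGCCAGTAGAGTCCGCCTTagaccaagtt
Site 21, minus strand, chr11:96407883-96407921: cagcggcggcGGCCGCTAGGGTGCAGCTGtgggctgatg

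All 12 of these sites held a match, with 4 on the plus strand and 8 on the minus strand. The match was to a matrix learned from CTCF summits outside the window, whose most frequent letters read nGCCACnAGGGGGCGCnnn, searched on both strands within 50 bp of the strongest summit of the site. Over the genome, 79.3% of the 43533 wild-type whole-limb CTCF peaks held such a match, 17264 on the plus and 17243 on the minus strand, and the score threshold of 6.90 bits was the one that 5% of windows placed 2000 bp away passed. Those genome peaks were searched around their whole-limb summit, and the sites of the window around their strongest summit over the 7 CTCF lists. By strength, the share was 30.8% in the weakest decile of that list and 80.4 to 95.7% in the deciles that hold the 12 sites. Inside the cluster the 9 sites in all 7 lists read, from Hoxb13 to Hoxb1, minus at sites 5, 6, 7, 8 and 10, plus at site 11, minus at site 13, and plus at sites 14 and 15. All 10 HoxB genes lie on the plus strand, so the 5 minus-strand matches between Hoxb13 and Hoxb9 point against the direction of transcription. The match at site 15 was the weakest of the 12, at 7.05 bits, and no longer passed when the search was widened to 100 bp with its own higher threshold of 9.33 bits. The next weakest of them scored 11.87 bits, at site 21, and the best 22.44 bits, at site 6.

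Of the 9 CTCF sites found in fewer lists, sites 4, 12, 17, 20 and 22 held a match. Site 12, in the 3′ UTR of Hoxb8, scored 8.69 bits on the minus strand. Site 17, in Hoxb3, held the best match of all the sites, at 23.25 bits on the minus strand, above 98.4% of the matches of whole-limb peaks. Its CTCF peak stood at the 18.8th percentile of the wild-type whole-limb list, the 43.5th of the distal and the 59.2nd of the proximal forelimb list. These 2 sequences are given because they lie within HoxB genes and del(1-13)d9lac had no peak at either site. Site 12 is shown with 5 bases on each side of the match and site 17 with 10.
Site 12, minus strand, chr11:96284620-96284648: gatacTACCACTAGCGGGGACTGGcgcgg
Site 17, minus strand, chr11:96346180-96346218: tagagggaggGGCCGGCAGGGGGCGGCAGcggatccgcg

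The CTCF sites were spread unevenly over the cluster. Between Hoxb13 and Hoxb5 there were 8 sites with CTCF in all 7 lists, site 15 followed just beyond Hoxb5, and none lay from there to the end of Hoxb1. From site 15 to site 21, the next such site, the distance was 96.2 kb, a stretch that holds Mir10a, Hoxb4, Hoxb3, Hoxb2 and Hoxb1. The other neighbours among the 12 sites were 5.31 to 41.4 kb apart. The median of the 11 gaps in the window was 15.8 kb, and the median of the 28612 gaps between such sites over the genome was 35.1 kb, of which 22.9% were at least as wide as the widest gap of the window. None of the cohesin lists had a peak in that stretch.

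**Figure D1:**
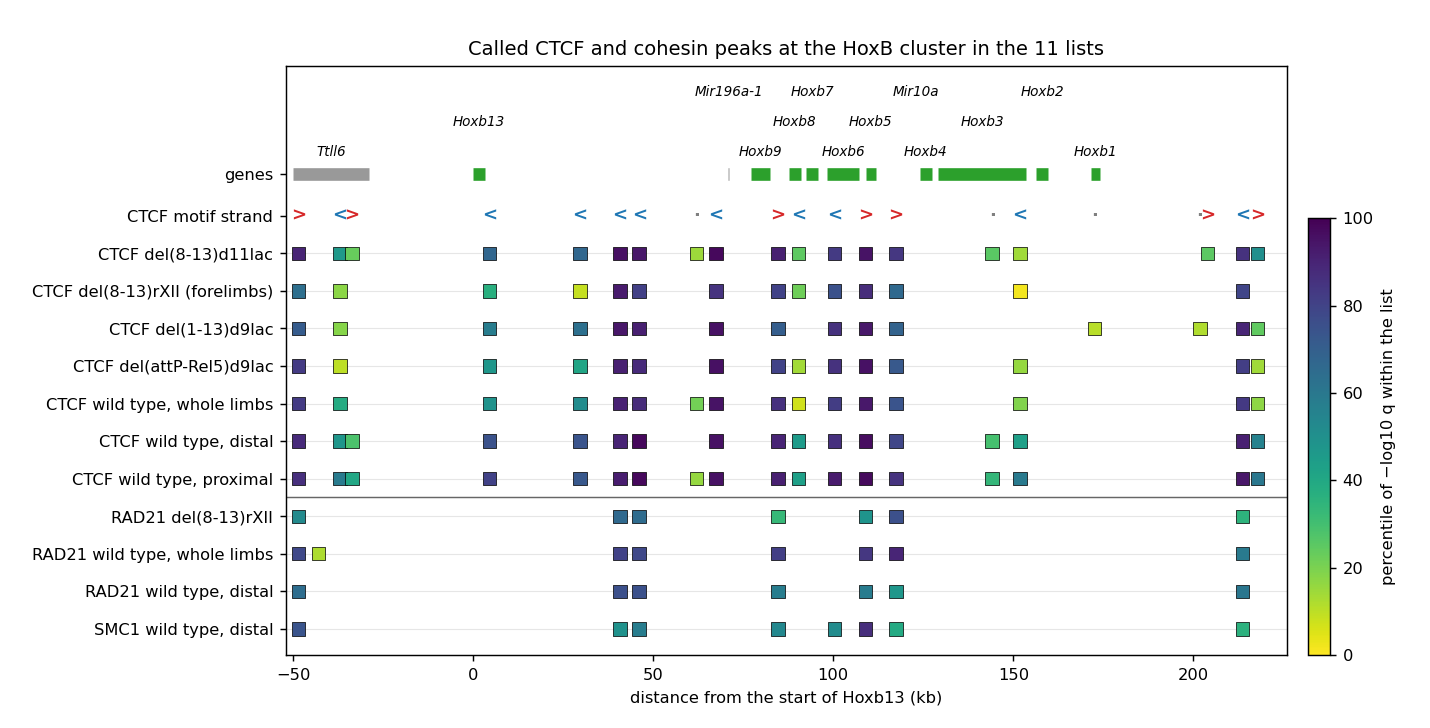
Map of the called peaks at the HoxB cluster, with the distance from the start of Hoxb13 in kb on the x axis and one line per list on the y axis. Each square is a called peak, coloured by the percentile of its −log10 q within its own list, green boxes are HoxB genes and arrowheads give the strand of the CTCF match, with a dot where no match passed. The 12 columns of CTCF peaks that run through all 7 lists include 4 with no cohesin square beneath them, and the stretch from Hoxb4 to Hoxb1 has no such column.

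Strengths are given below as the −log10 of the q-value at the summit, computed by the authors for each peak. They depend on the read depth, which is unknown, so they order the sites of one list and do not measure change between lists. The lists held 36116 peaks for CTCF in del(8-13)rXII and up to 73682 in wild-type proximal forelimb, and 15927 to 33707 for RAD21.

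In the long intergenic stretch between Hoxb13, which acts at the tail end of the body axis, and Hoxb9, which patterns the thorax, 6 sites were called. Site 5 (chr11:96198271-96199080) lay 1308 bp beyond the end of Hoxb13 and 4439 bp from its start. Its CTCF values were 69.0 in del(8-13)d11lac, 21.1 in del(1-13)d9lac, 20.0 in del(attP-Rel5)d9lac and 5.16 in del(8-13)rXII, against 16.1 in wild-type whole limbs, 85.6 in distal and 101 in proximal forelimb. Site 6 (chr11:96223742-96224280) lay 26533 bp beyond Hoxb13. Its CTCF values were 67.7 in del(8-13)d11lac, 25.4 in del(1-13)d9lac, 15.9 in del(attP-Rel5)d9lac and 2.42 in del(8-13)rXII, against 18.0 in wild-type whole limbs, 81.7 in distal and 68.6 in proximal forelimb. Both sites were of middling strength, at the 48.4th and 51.6th percentile of the whole-limb wild-type list, and neither had a cohesin peak in any of the 4 cohesin lists.

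Sites 7 (chr11:96234788-96235434) and 8 (chr11:96240133-96240738) lay 5.31 kb apart in the same stretch and were called in all 11 lists. Site 7 had CTCF values of 203 in del(8-13)d11lac, 75.1 in del(1-13)d9lac, 90.1 in del(attP-Rel5)d9lac and 19.8 in del(8-13)rXII, against 72.3 in wild-type whole limbs, 162 in distal and 171 in proximal forelimb. Its RAD21 value was 21.3 in del(8-13)rXII, against 55.8 in wild-type whole limbs and 28.2 in distal forelimb, and its SMC1 value was 11. Site 7 was the strongest CTCF site of the window in the del(8-13)rXII list and the strongest RAD21 site in the wild-type distal list.

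Site 8 had CTCF values of 189 in del(8-13)d11lac, 65.5 in del(1-13)d9lac, 80.9 in del(attP-Rel5)d9lac and 14.4 in del(8-13)rXII, against 63.9 in wild-type whole limbs, 231 in distal and 231 in proximal forelimb. It was the strongest CTCF site of the window in both CD1 forelimb lists and the fourth in the 4 alleles and in whole-limb wild type. RAD21 reached 20.6 there in del(8-13)rXII, against 50.9 in wild-type whole limbs and 27.7 in distal forelimb, with SMC1 at 13.8. In the del(8-13)rXII CTCF list a second, weaker peak of 3.74 was called beside it, which overlapped no wild-type whole-limb peak.

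Site 10 (chr11:96261366-96262061) was among the 3 strongest CTCF sites of the window in every CTCF list and had no cohesin peak in any list. Its summit lay in a non-coding exon of Gm53, a predicted long non-coding RNA gene, 3410 bp before Mir196a-1, a microRNA known to target Hoxb8. CTCF was at 225 in del(8-13)d11lac, 81.6 in del(1-13)d9lac, 111 in del(attP-Rel5)d9lac and 16.1 in del(8-13)rXII, against 87.8 in wild-type whole limbs, 203 in distal and 200.2 in proximal forelimb. It ranked 1 in the window in 3 allele lists and in wild-type whole limbs, and 3 in the other 3 lists. The fold enrichment over local background, also the authors' value, was 9.04 in del(8-13)rXII and 16.8 to 21.3 in the other 6 CTCF lists. The nearest cohesin peak was 17027 to 17105 bp away.

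A CTCF peak of that strength without cohesin was uncommon elsewhere. Of the 2191 other wild-type whole-limb CTCF peaks at least as strong as site 10, 154 (7.03%) had no RAD21 peak in whole limbs, and 56 (2.56%) had none in any of the 4 cohesin lists. In distal forelimb, 121 of the 3226 CTCF peaks at least as strong (3.75%) had neither RAD21 nor SMC1. Site 10 was singled out after its values were seen, and its place among those peaks is a description of these libraries. A weak CTCF peak at site 9 (chr11:96256077-96256382), in an intron of Gm53, was called at 6.65 in del(8-13)d11lac, against 5.78 in wild-type whole limbs and 4.32 in proximal forelimb, and in no other list.

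**Figure D2:**
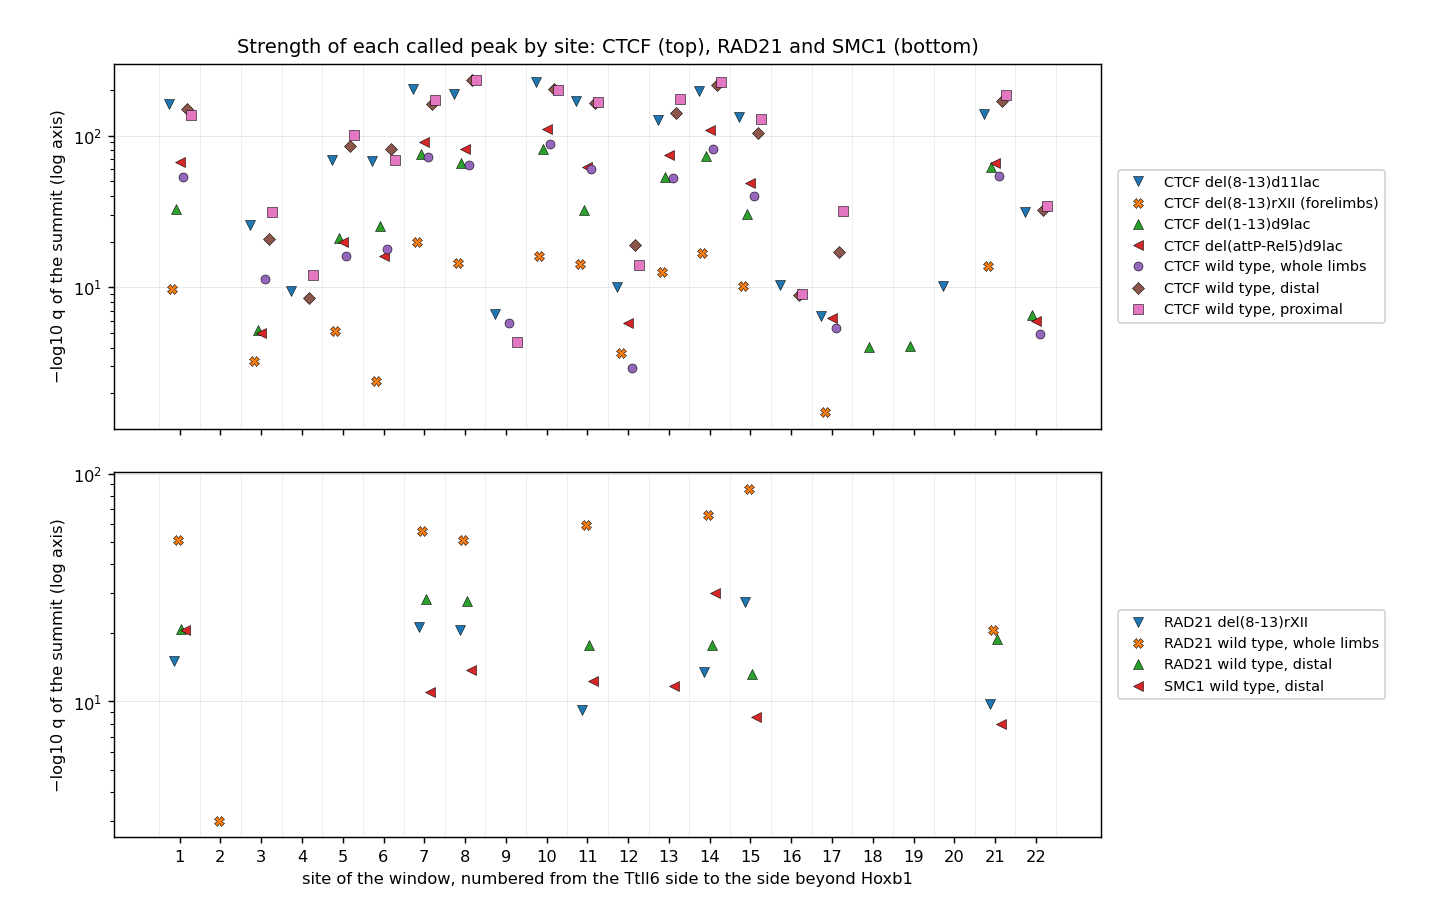
Strength of each called peak, as the authors' −log10 q on a log axis, at the 22 sites of the window, with CTCF lists in the upper panel and RAD21 and SMC1 lists in the lower panel. Sites 10 and 13 stand high in the upper panel with no RAD21 point in the lower one. Site 15 has the highest RAD21 values in del(8-13)rXII, 27.2, and in wild-type whole limbs, 85.8, but the lowest in distal forelimb, 13.2.

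Around Hoxb9, Hoxb8 and Hoxb7, the genes of the thoracic part of the axis, 2 sites were called. Site 11 (chr11:96278639-96279259) lay between Hoxb9 and Hoxb8, 2943 bp before the Hoxb8 start, and was called in all 11 lists. CTCF was at 170.2 in del(8-13)d11lac, 32.2 in del(1-13)d9lac, 62.4 in del(attP-Rel5)d9lac and 14.1 in del(8-13)rXII, against 60.6 in wild-type whole limbs, 163 in distal and 165 in proximal forelimb. RAD21 was at 9.15 in del(8-13)rXII, against 59.4 in wild-type whole limbs and 17.6 in distal forelimb, and SMC1 at 12.2. The site was the weakest of the 7 RAD21 sites in del(8-13)rXII and ranked 3 of 8 in wild-type whole limbs.

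Site 12 (chr11:96284443-96284849), in the 3′ UTR of Hoxb8, was a weak CTCF site without cohesin. It was called at 10.0 in del(8-13)d11lac, 3.67 in del(8-13)rXII and 5.83 in del(attP-Rel5)d9lac, against 2.95 in wild-type whole limbs, 19 in distal and 13.9 in proximal forelimb, and was not called in del(1-13)d9lac. Neither Hoxb9 nor Hoxb7 had a site within the gene. Their starts lay 7505 and 7661 bp from site 11, the nearest site in all 7 CTCF lists. The weak site 12 was nearer to Hoxb7, 1983 bp before its start.

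Site 13 (chr11:96294288-96295053) lay 2214 bp inside Hoxb6, a gene expressed in lateral plate mesoderm, in an intron of its longest annotated transcript and of the antisense transcript Hoxb5os. CTCF was strong, at 127 in del(8-13)d11lac, 53.5 in del(1-13)d9lac, 74.4 in del(attP-Rel5)d9lac and 12.54 in del(8-13)rXII, against 52.8 in wild-type whole limbs, 141 in distal and 175 in proximal forelimb. No RAD21 list had a peak there, while SMC1 was called at 11.7 in distal forelimb. Of the 4589 wild-type whole-limb CTCF peaks elsewhere within a factor of 1.2 of its strength, 13.1% had no RAD21 peak. In distal forelimb the share without RAD21 was higher, at 31.7% of the 6482 CTCF peaks of like strength. Among the 3284 distal SMC1 peaks of like strength, 32.0% had no RAD21 peak. It was the only site of the window where the SMC1 and RAD21 lists of distal forelimb parted.

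Site 14 (chr11:96302894-96303560) was at the promoter of Hoxb5, a gene that acts in placing the forelimb along the axis. Its strongest summit lay 82 bp before the annotated start of the gene and 258 bp before the start of the coding transcript at chr11:96303512-96306120. No other HoxB gene start was as close to a site in all 7 CTCF lists, the next being that of Hoxb6 at 2214 bp. The 150 bases before the annotated start are shown with the match in capitals, which sits 2 bp from the summit.
Hoxb5 promoter, plus strand, chr11:96303186-96303335: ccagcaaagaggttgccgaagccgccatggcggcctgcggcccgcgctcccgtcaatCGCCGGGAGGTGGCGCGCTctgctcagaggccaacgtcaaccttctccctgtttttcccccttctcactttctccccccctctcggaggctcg

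CTCF at the Hoxb5 promoter was at 196 in del(8-13)d11lac, 73.5 in del(1-13)d9lac, 109 in del(attP-Rel5)d9lac and 16.9 in del(8-13)rXII, against 81.6 in wild-type whole limbs, 215 in distal and 225 in proximal forelimb. It ranked 2 or 3 in the window in each of the 7 CTCF lists. RAD21 was at 13.5 in del(8-13)rXII, against 66.0 in wild-type whole limbs and 17.7 in distal forelimb. SMC1, at 29.9, was stronger here than at any other site of the window.

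Site 15 (chr11:96311429-96312058) was intergenic, between the antisense transcript Hoxb5os, 4825 bp away, and Mir10a, a microRNA gene next to Hoxb4, 5430 bp away. Its CTCF values were 133 in del(8-13)d11lac, 30.3 in del(1-13)d9lac, 48.9 in del(attP-Rel5)d9lac and 10.2 in del(8-13)rXII, against 39.9 in wild-type whole limbs, 104 in distal and 129 in proximal forelimb. RAD21 was at 27.2 in del(8-13)rXII, against 85.8 in wild-type whole limbs and 13.2 in distal forelimb, and SMC1 at 8.57. Site 15 was thus the strongest RAD21 site of the window in both whole-limb lists and the weakest of the 7 in the distal list. Its CTCF peak ranked 8 or 9 in the window in each of the 7 CTCF lists.

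Towards the head end of the cluster only weaker sites were called, none with cohesin. The starts of Hoxb4, known for its action in blood stem cells, and of Hoxb3, a hindbrain gene, lay 6532 and 11591 bp from site 15. Within Hoxb3, site 16 (chr11:96338220-96338655) was intronic and was called at 10.3 in del(8-13)d11lac, against 8.90 in distal and 8.96 in proximal forelimb of wild type. Site 17 (chr11:96345953-96346387), with its summit in a coding exon of Hoxb3 and an exon of the antisense transcript Hoxb3os, was called in 6 CTCF lists. Its values were 6.45 in del(8-13)d11lac, 1.5 in del(8-13)rXII and 6.22 in del(attP-Rel5)d9lac, against 5.41 in wild-type whole limbs, 17.2 in distal and 32.0 in proximal forelimb.

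Hoxb2 and Hoxb1, which pattern the hindbrain, started 38790 and 42147 bp from the nearest site in all 7 CTCF lists. Site 18 (chr11:96366675-96366876), in the Hoxb1 intron, was called in del(1-13)d9lac alone, at 4.04, which was the 10.6th percentile of that list, and held no CTCF match. Across the 10 genes, Hoxb8, Hoxb6, Hoxb3 and Hoxb1 had the strongest summit of a CTCF site within the gene. Of these sites, site 13 in Hoxb6 was the one called in all 7 lists. The region of site 14, whose strongest summit lay before Hoxb5, also ran into that gene.

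On the flank beyond Hoxb13, sites 1 to 4 all lay in introns of Ttll6, which encodes a tubulin-modifying enzyme. Site 1 (chr11:96145501-96146066) was called in all 11 lists, with CTCF at 162 in del(8-13)d11lac, 33.0 in del(1-13)d9lac, 67.0 in del(attP-Rel5)d9lac and 9.70 in del(8-13)rXII, against 52.9 in wild-type whole limbs, 150.4 in distal and 137 in proximal forelimb. RAD21 there was at 15.1 in del(8-13)rXII, against 51.0 in wild-type whole limbs and 20.9 in distal forelimb, with SMC1 at 20.7. Site 3 (chr11:96157079-96157529) had CTCF in all 7 lists, from 3.28 in del(8-13)rXII to 31.3 in wild-type proximal forelimb, and no cohesin. Site 4 (chr11:96160484-96160831) was called at 9.37 in del(8-13)d11lac, against 8.48 in distal and 12.0 in proximal forelimb of wild type. Site 2 (chr11:96151148-96151491) was the one site with cohesin and no CTCF, a RAD21 peak of 3.00 in wild-type whole limbs, at the 12.4th percentile of that list, with no CTCF match.

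On the flank beyond Hoxb1, site 21 (chr11:96407605-96408167), 39643 bp from the gene, was called in all 11 lists. CTCF was at 139.6 in del(8-13)d11lac, 61.9 in del(1-13)d9lac, 66.0 in del(attP-Rel5)d9lac and 13.8 in del(8-13)rXII, against 54.4 in wild-type whole limbs, 169 in distal and 185 in proximal forelimb. RAD21 was at 9.74 in del(8-13)rXII, against 20.6 in wild-type whole limbs and 18.9 in distal forelimb, and SMC1 at 7.98. Site 22 (chr11:96411972-96412333) was called in 6 CTCF lists, at 6.54 in del(1-13)d9lac, 31.5 in del(8-13)d11lac and 6.01 in del(attP-Rel5)d9lac, against 4.91 in wild-type whole limbs, 32.4 in distal and 34.3 in proximal forelimb. Site 19 (chr11:96396016-96396212) was called in del(1-13)d9lac alone, at 4.12, and site 20 (chr11:96397993-96398359) in del(8-13)d11lac alone, at 10.2.

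The first question the design allows is whether the HoxD deletion alleles kept the CTCF sites of this undeleted cluster. Del(8-13)d11lac had a peak at 16 of the 16 wild-type whole-limb CTCF peaks of the window (100%, Wilson 95% interval 80.6 to 100%), beside 91.8% over the genome. Del(8-13)rXII kept 14 of 16 (87.5%, 64.0 to 96.5%), beside 70.3%. Del(1-13)d9lac kept 13 of 16 (81.2%, 57 to 93.4%), beside 80.0%. Del(attP-Rel5)d9lac kept 15 of 16 (93.8%, 71.7 to 98.9%), beside 82.8%. The intervals cover counting error only, and each of the 4 contains the genome share. The order of the alleles depends on the length of their lists. With CTCF lists cut to an equal length of 36116 peaks, del(8-13)rXII kept 13 of 14 (92.9%). Del(8-13)d11lac, del(1-13)d9lac and del(attP-Rel5)d9lac then each kept 12 of 14 (85.7%).

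The peaks not kept were weak in the wild-type whole-limb list. In it the 12 sites that were in all 7 CTCF lists had −log10 q values of 11.3 to 87.8, and the other 4 had values of 2.95 to 5.78. Del(8-13)rXII had no peak at sites 9 and 22, del(1-13)d9lac none at sites 9, 12 and 17, and del(attP-Rel5)d9lac none at site 9. By strength, site 12 fell in the weakest decile of whole-limb CTCF peaks, sites 17 and 22 in the second and site 9 in the third. Over the genome, del(8-13)rXII kept 24.2% of the second decile, that of site 22, and 42.4% of the third, that of site 9. Del(1-13)d9lac kept 22.1% of the first, 41.8% of the second and 63.0% of the third decile, each of which held a site it lacked. Del(attP-Rel5)d9lac, which lacked site 9, kept 70.9% of the third. For peaks of like strength elsewhere in the list, within a factor of 1.2 of each site, the rates add up to 15.15 of 16 kept in del(8-13)d11lac, 13.58 in del(1-13)d9lac, 13.93 in del(attP-Rel5)d9lac and 12.41 in del(8-13)rXII, each within 2 sites of the number kept in the window. The 12 sites in all 7 lists were 75% of the 16 whole-limb peaks (50.5 to 89.8%), beside 65.8% over the genome, and the 7 in all 11 lists were 43.8% (23.1 to 66.8%), beside 27.2%.

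Read the other way, 16 of the 19 del(8-13)d11lac peaks of the window overlapped a wild-type whole-limb peak (84.2%, 62.4 to 94.5%), beside 64.9% over the genome. The other 3 were sites 4, 16 and 20, of which sites 4 and 16 were also called in both CD1 forelimb lists. For del(8-13)rXII it was 14 of 15 beside 87.0%, for del(1-13)d9lac 13 of 15 beside 83.8%, and for del(attP-Rel5)d9lac 15 of 15 beside 84.0%. The order of site strengths was alike in all CTCF lists, with Spearman rho between 0.855 and 0.973 over the 12 to 18 sites that each pair of lists had in common. The points of each pair come from the same pair of libraries, and this is a description over sites.

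Among the wild-type CTCF lists, distal forelimb had a peak at 15 of the 16 whole-limb sites (93.8%, 71.7 to 98.9%), beside 91.9% over the genome, and proximal forelimb at 16 of 16 (100%, 80.6 to 100%), beside 92.0%. All 17 distal peaks of the window had a proximal counterpart (81.6 to 100%), beside 82.6%. Of the 18 proximal peaks, 17 had a distal one, beside 77.8%, and the exception was the weak site 9. No CTCF site of the HoxB window was called in distal but not in proximal forelimb. All 3 wild-type lists had a peak at 15 of the 16 whole-limb sites, beside 90.7%. Of the distal peaks, 15 of 17 were also whole-limb peaks (88.2%, 65.7 to 96.7%), beside 57.3%, and of the proximal peaks 16 of 18 (88.9%, 67.2 to 96.9%), beside 54.1%. Both intervals lie above the genome share. The median −log10 q in the window was 104 in distal and 115 in proximal forelimb, beside 23.7 and 19.5 over those lists. At the rates of peaks of like strength the number shared would be 13.67 of the 17 distal and 14.31 of the 18 proximal peaks, each within 2 of the number seen.

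RAD21 in del(8-13)rXII was called at 7 of the 8 wild-type whole-limb RAD21 peaks of the window (87.5%, 52.9 to 97.8%), beside 45.2% over the genome. The peak not called was that of site 2, the weakest. All 7 del(8-13)rXII peaks overlapped a wild-type whole-limb peak, beside 96.1%. In distal forelimb RAD21 was called at the same 7 sites, which was 7 of the 8 whole-limb peaks (52.9 to 97.8%), beside 47.0%. The strengths of the 7 sites were ordered differently in each RAD21 list. Spearman rho over them was 0.286 between del(8-13)rXII and wild-type whole limbs, 0.214 between del(8-13)rXII and distal forelimb, and -0.643 between wild-type whole limbs and distal forelimb, as a description over sites that share their libraries. The intervals for del(8-13)rXII and for distal forelimb both lie above the genome share. The RAD21 peaks of the window were strong for their list, with a median −log10 q of 53.4 in wild-type whole limbs beside 13.6 over that list. At the rates of peaks of like strength, 6.55 of the 8 would be called in del(8-13)rXII and 6.52 of the 8 in distal forelimb, against the 7 seen in each.

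Cohesin was called at 41.2 to 47.1% of the HoxB CTCF peaks in the lists as deposited. In wild-type whole limbs, 7 of 16 had RAD21 (43.8%, 23.1 to 66.8%), beside 51.5% over the genome. In distal forelimb 7 of 17 had RAD21 (41.2%, 21.6 to 64.0%), beside 22.8%, and 8 of 17 had SMC1 (47.1%, 26.2 to 69.0%), beside 31.0%. Of the 12 sites in all 7 CTCF lists, 4 had no peak in any cohesin list (33.3%, 13.8 to 60.9%), beside 23.0%. Each of these 4 intervals contains its genome share, so a difference was not detectable with so few sites. At the rates of peaks of like strength, 10.01 of the 16 whole-limb peaks would have RAD21, and of the 17 distal peaks 7.71 would have RAD21 and 9.68 SMC1. The shares depend on how many weak CTCF peaks a list holds. Among peaks with a −log10 q of 10 or more, 7 of 12 whole-limb peaks had RAD21 (58.3%), and with lists of equal length 7 of 14 did (50.0%). With lists of equal length, 7 of 12 distal peaks had RAD21 (58.3%) and 8 of 12 had SMC1 (66.7%).

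The share of CTCF peaks with RAD21 climbed with CTCF strength over the genome. It was 11.5% in the weakest decile of wild-type whole-limb peaks and 92.4% in the strongest decile, whose values start at 70.1. In the window, the 7 CTCF sites with RAD21 had CTCF values of 39.9 to 81.6, and 7 of the 9 without had values of 2.95 to 18.0. The other 2 were site 13 at 52.8 and site 10 at 87.8. Sites 3, 5 and 6, at 11.3 to 18.0, fell in deciles of the list where 31.6 to 56.7% of peaks had RAD21.

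**Figure D3:**
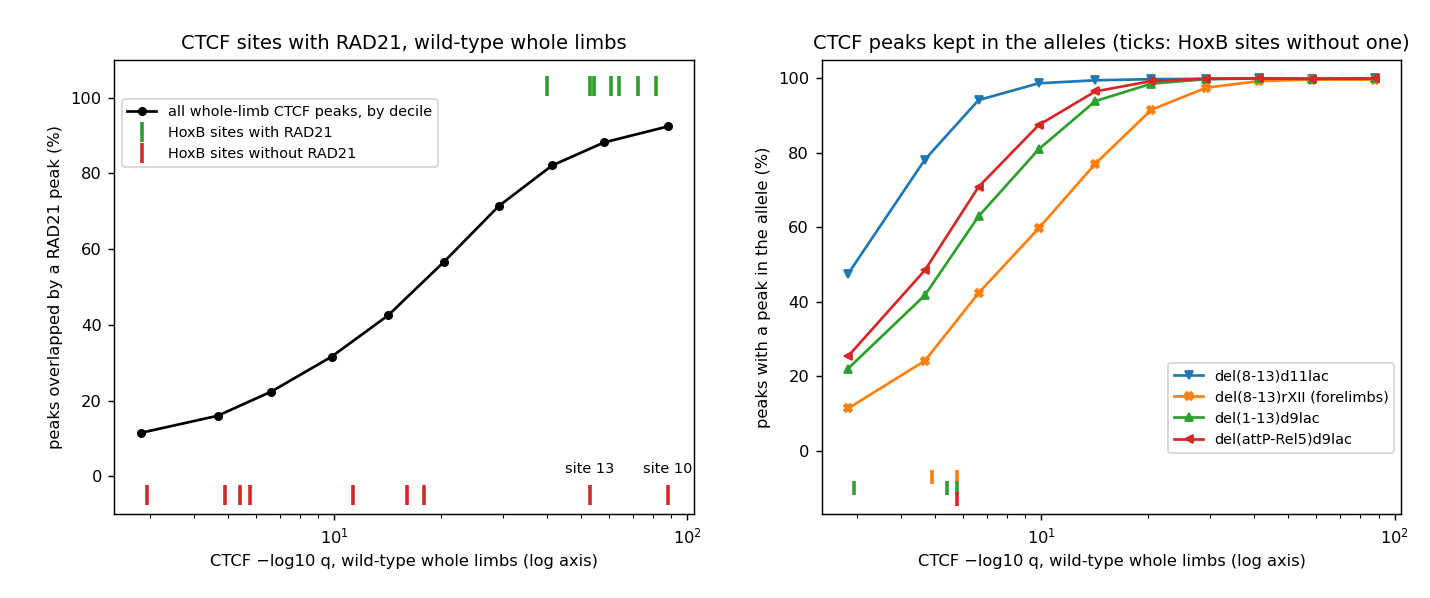
Share of wild-type whole-limb CTCF peaks with a RAD21 peak (left) and with a CTCF peak in each allele (right) by decile of the list, against the median CTCF −log10 q of the decile on a log axis. Ticks mark the HoxB sites with RAD21 (top left), without RAD21 (bottom left) and without a peak in an allele (bottom right, in the colour of the allele); sites 10 and 13 lie among the strong peaks without RAD21, and all sites missing in an allele lie below 6.

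SMC1 and RAD21 in distal forelimb were called at nearly the same sites. RAD21 was present at 7 of the 8 SMC1 peaks (87.5%, 52.9 to 97.8%), beside 62.5% over the genome, and SMC1 at all 7 RAD21 peaks (64.6 to 100%), beside 87.9%. The exception was site 13 in Hoxb6. All 8 SMC1 peaks lay on a CTCF peak of distal forelimb, beside 94.0%, and all 7 RAD21 peaks did, beside 96.6%. In wild-type whole limbs 7 of 8 RAD21 peaks lay on CTCF, beside 66.4%, and in del(8-13)rXII 7 of 7, beside 89.2%.

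Set beside the other Hox clusters, the HoxB span of 173.9 kb without flanks held 12 CTCF peaks in wild-type whole limbs, or 6.90 per 100 kb. The HoxA span held 6 (5.70 per 100 kb), the HoxC span 4 (3.46) and the HoxD span 6 (6.20), beside 1.60 per 100 kb over the genome. RAD21 peaks numbered 5 in HoxB (2.87 per 100 kb), 5 in HoxA (4.75), 3 in HoxC (2.59) and 5 in HoxD (5.16), beside 1.24. RAD21 was present at 5 of the 12 CTCF peaks of the HoxB span and at 5 of 6 in HoxA. It was present at 3 of 4 in HoxC and 4 of 6 in HoxD, beside 51.5% over the genome. That share climbed with CTCF strength, and the spans held different numbers of weak peaks. A −log10 q of at least 10 was reached by 9 of these CTCF peaks in HoxB, 5 in HoxA, 3 in HoxC and 6 in HoxD. Whether the spans differ in RAD21 at like CTCF strength was not tested. The order of the clusters by peaks per 100 kb depends on weak peaks and on the list. With a −log10 q of at least 10, CTCF stood at 5.17 per 100 kb in HoxB, against 4.75 in HoxA, 2.59 in HoxC and 6.20 in HoxD, and RAD21 at 2.87 in HoxB, against 4.75, 2.59 and 4.13. In distal forelimb HoxB held 12 CTCF peaks, HoxA 11, HoxC 4 and HoxD 6. In proximal forelimb the numbers were 13, 12, 6 and 6. The HoxA span is 105.3 kb long, so HoxA was denser than HoxB in both CD1 lists, unlike in whole limbs. These are counts of 1 library each, and no difference between clusters was tested.

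**Figure D4:**
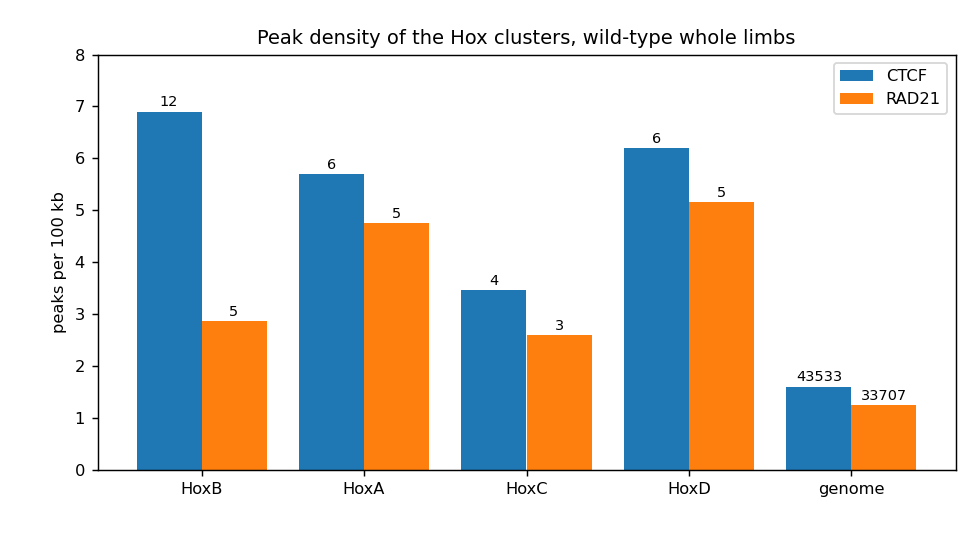
Called CTCF and RAD21 peaks per 100 kb in the 4 Hox clusters and over chromosomes 1 to 19, X and Y in wild-type whole limbs, with the number of peaks above each bar. HoxB has 6.90 CTCF and 2.87 RAD21 peaks per 100 kb, and all the clusters stand above the genome values of 1.60 and 1.24.

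One property of the lists bears on the site positions. In the del(8-13)rXII CTCF list, summits lay a median of 39.5 bp from those of wild-type whole limbs at the 14 shared HoxB sites, and 42.0 bp over the genome, while those of the other CTCF lists lay 7 to 13 bp away in the window. Of its peaks, 24.6% held several summits, against at most 3.24% in every other list, and in the window 6 of 15 did. This is the ChIPmentation library from forelimbs alone, so assay, tissue and genotype cannot be told apart in it. Its strengths in the window ran from 1.5 to 19.8.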

How the data were processed

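The labels list 13 samples, and the 11 with a peak list were used, with 1 library per group. Per the submitters' processing notes, cutadapt, Bowtie2, MACS2 and build mm10 were used; roles, versions, thresholds and controls are not given in the sources used here. Each deposited list holds called regions with their summits. The score in the deposited lists is a whole number made by the authors and was not used. The fold enrichment at the summit is a ratio to local background computed by the authors. For each peak the deposited lists also give a −log10 p-value and a −log10 q-value, made by the authors; no list goes below the −log10 of a q of 0.05. Read depth is unknown. Per the labels' protocols, tissue was fixed for 10 minutes for CTCF, 10 or 25 for RAD21 and 25 for SMC1, and the ChIPmentation sample used only a fraction of the sonicated chromatin.

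Rows of one region were merged with their strongest summit, on chromosomes 1 to 19, X and Y. Peaks overlapping by at least 1 bp, over all lists, formed a site, and peaks were shared on the same overlap. Positions are 1-based, on GRCm38.p6 with GENCODE M21. A CTCF matrix of 19 bp was learned from the 2000 strongest wild-type whole-limb summits outside the window and searched within 50 bp of summits. Wilson 95% intervals cover counting error. Every site is described, with the HoxB genes, named neighbours and the gene a site lies in; predicted genes were passed over unless a site lay in no other. The members and lists were chosen with earlier results of these data known; like strength within a factor of 1.2, deciles, gaps and distances to cohesin were added after seeing the data. The overlap rule and motif search were tested on simulated data. Alternatives were a −log10 q of at least 10, every summit row, lists of equal length, 50% of the peak covered, summits within 200 bp, a 100 bp motif window and a 1% motif threshold. Python 3.11.15, pandas 2.3.3, numpy 2.4.6, scipy 1.17.1, pysam 0.24.0 and matplotlib 3.10.9 were used.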

Additional observations from a re-analysis of the deposited data

How the results depend on the processing

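Of 110 alternative values over 34 results, 107 stayed within the counting interval of their share or within a factor of 1.5 of their count. The intervals are wide with so few sites, so large moves also count as staying, and some comparisons turned. With a −log10 q of at least 10, CTCF peaks per 100 kb were fewer in HoxB (5.17) than in HoxD (6.20), and RAD21 peaks fewer in HoxD (4.13) than in HoxA (4.75). The share of whole-limb CTCF peaks with RAD21 came to 58.3% at that limit in place of 43.8%. With lists of equal length, those of distal forelimb came to 58.3% with RAD21 in place of 41.2%, and to 66.7% with SMC1 in place of 47.1%. With 50% of the peak covered, both came to 29.4%. The CTCF share kept in del(8-13)rXII, 87.5%, fell to 68.8% with 50% covered and to 66.7% with a −log10 q of at least 10. Its RAD21 share, also 87.5%, fell to 71.4% at that limit. With lists of equal length, distal forelimb had a peak at 78.6% of the wild-type whole-limb CTCF peaks in place of 93.8%. The other 3 values were these. With only peaks of a −log10 q of at least 10, the del(8-13)rXII CTCF list had 8 peaks in the HoxB window in place of 15, and distal forelimb held 100% of the wild-type whole-limb CTCF peaks, 12 of 12, in place of 93.8%. With lists of equal length, del(8-13)rXII held 100% of the wild-type whole-limb RAD21 peaks, 7 of 7, in place of 87.5%. Both shares reached their ceiling because the weak peaks left the list. In del(8-13)rXII the other 7 peaks were below that value. The motif matches at sites 12 and 15 did not pass when the search was widened to 100 bp, while one at site 9 did, and those at sites 12, 15, 20 and 21 did not pass the 1% threshold. No paired analysis was possible because each group had 1 library. Read depth is unknown, so an uncalled weak peak is not shown to be absent, and strengths compare only within a list.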
